A study of Gossypium hirsutum with 24 samples.

Results

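The infested portion of the cotton boll was compared with the matching control portion after 5 days of feeding by the cotton bollworm. This comparison used 6 of the 24 arrays of the series, namely the 3 arrays labelled 5 dpa bollworm infested (BS) and the 3 labelled 5 dpa control (CN), where dpa stands for days post anthesis. The plants were field-grown Gossypium hirsutum cv. Bikaneri narma, the one cultivar of the series. For BS, Helicoverpa armigera larvae were put on the flower on the day it opened, the flower was covered with a bag, and at 5 dpa the larva was still in place. Covered buds without a larva gave CN. CN and BS plants stood in separate plots under nylon nets, so plot and infestation cannot be told apart. At this stage the damaged portion of the BS boll was taken, and it is not stated which portion of the control boll matched it. Each array held a pool of bolls from 5 plants. The other 18 arrays, 6 for each other stage (0, 2 and 10 dpa), were used for the common estimate of error and to set the 5 dpa response beside the other stages. The samples of 0 and 2 dpa were entire bolls, and those of 10 dpa had been free of the larva since 5 dpa.

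A boll at this age is a growing fruit. Its green wall encloses ovules whose outer cells elongate into fibres, a process that needs wall loosening, new membrane lipid and an extending cytoskeleton. Chewing insects release jasmonate and ethylene signalling in plants. These hormones act through WRKY, AP2-EREBP, NAC and MYB transcription factors and lead to inhibitors of insect digestion, chitinases and other defence proteins. Damaged tissue also loses water and carries its nitrogen and carbon away from the wound.

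The measurements were log2 intensities of probe sets, each a group of short array probes for 1 transcript or for several near-identical ones. The authors centred each probe set on its median over the 24 arrays, so that 0 is the middle of the series and a value of 1 is 1 doubling above it. Values therefore compare samples for 1 probe set and carry no abundance. Of the 23977 probe sets tested, 2122 (8.85%) changed, of which 1533 (6.39% of all) rose in BS and 589 (2.46%) fell. Such differentially expressed transcripts (DETs) had a fold change of at least 3 and an adjusted p of at most 0.01 in limma with Benjamini-Hochberg adjustment. At an adjusted p of at most 0.01 without the fold change there were 13445 probe sets, so the fold change set the number of DETs. The median within-group SD was 0.101 in CN and 0.111 in BS, and the p-values measure the spread between these pools alone. The 3 BS arrays lay wholly above the 3 CN arrays for 27.7% of all probe sets and wholly below them for 39.6%, together 67.3%, which makes lack of overlap on its own a common event here. In bulk tissue, fewer cells of a type and less RNA per cell cannot be told apart.

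The rises were larger than the falls. The median log2 difference was 2.44 for up-regulated DETs and -1.90 for down-regulated DETs, and 235 probe sets rose by over 4 on the log2 scale while 10 fell by over 4. The largest rise was 8.78 and the largest fall -5.64. Of the up-regulated DETs, 91.6% lay above all 12 CN arrays of the series in each of the 3 BS arrays, against 16.0% of all probe sets. Of the down-regulated DETs, 69.1% lay below all 12 CN arrays, against 20.4% of all probe sets. The DETs were selected for their difference from the CN arrays of the same stage, which are among these 12. All probe sets include those that overlapped or moved the other way. The gaps between these shares are thus partly fixed by the selection and are no separate evidence of a response.

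These directions are relative to each array's own signal. The spiked-in controls stood higher in BS than in CN. The mean of the hybridization controls lay between -0.59 and -0.43 in CN and between 0.10 and 0.37 in BS, and that of the poly-A controls, which are added before labelling, between -1.47 and -1.08 in CN and between 0.76 and 0.90 in BS. Centring on the former lowered each BS minus CN value by 0.73 and gave 837 up-regulated and 2958 down-regulated DETs, and centring on the latter lowered each by 2.03 and gave 314 and 19091. The values of the CN arrays were also spread more widely (SD 0.70 to 0.71) than those of the BS arrays (SD 0.49 to 0.50). Quantile normalization, which equalizes the spread, gave 1496 up-regulated and 1297 down-regulated DETs, so that the up-regulated share went from 72.2% to 53.6%. The 3′ minus 5′ difference of control probes bears on RNA integrity, but centring of each probe set leaves it usable only for comparing arrays. For actin it was -0.61 to -0.12 in CN and -0.16 to 0.13 in BS. The ss1 control gave -0.44 to 0.15 in CN and -0.2 to 0.29 in BS, and ubq11 gave -0.57 to 0.14 and -0.16 to 0.08. The part of these differences in the results was not tested. Of the 29 gene lists described below, those with a median above 0 went below 0 with poly-A centring except ethylene (0.10), NAC (0.62) and trehalose and galactinol (1.17).

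The probe sets below are named from the study's tables, which list transcripts that passed its own test on these arrays. Names were thus available for 2856 of the probe sets tested (11.9%) and for 1192 of the DETs (56.2%). Of those with a name 28.0% rose and 13.8% fell as DETs, and the share of DETs in a list should be read against those numbers. The median difference was -0.106 over all probe sets tested and -0.293 over the named ones. A list so chosen is no independent evidence of its direction.

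4 of the transcripts on which the account turns are shown by the primer pairs that the study designed for them, all printed 5′ to 3′ in lower case and without a marked base, since the sequences of the array probes were not used here. The pairs belong to 3 probe sets among the largest rises and 1 among the largest falls.
polygalacturonase (Ghi.7933.1.S1_at), forward: tttcaccaccttgctcatctc
polygalacturonase (Ghi.7933.1.S1_at), reverse: cgatgcgtttggcaacaaata
Kunitz family protein (GhiAffx.61299.1.S1_at), forward: taacaaccggtggagttgaag
Kunitz family protein (GhiAffx.61299.1.S1_at), reverse: ggcagtaaacaagcctgtagt
ACS1 (Ghi.23.4.A1_at), forward: catgaggctctcgtcgtataac
ACS1 (Ghi.23.4.A1_at), reverse: tcatgaagcagacaagtctcaa
glyoxal oxidase-related (Ghi.5081.1.S1_s_at), forward: tcacctgtaagtcaccacttg
glyoxal oxidase-related (Ghi.5081.1.S1_s_at), reverse: ggaggcattctatccggttatt

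The largest named rise was that of ATEXLB1 (Ghi.6465.2.S1_at), an expansin-like protein of the cell wall. Its CN arrays read -7.93, -7.96 and -8.69 and its BS arrays 0.64, 0.57 and 0.56, a log2 difference of 8.78 (SE 0.13, limma adjusted p = 5.1e-22). ASN1 (Gra.1559.1.A1_at), asparagine synthetase, which packs nitrogen for transport, read -7.82, -8.11 and -8.17 in CN and 0.61, 0.60 and 0.61 in BS. For both, the 3 BS arrays agreed within 0.1 while CN lay near -8. ACS1 (Ghi.23.4.A1_at), an ACC synthase that makes the precursor of ethylene, read -6.20, -6.57 and -6.56 in CN and 2.08, 2.10 and 2.09 in BS (difference 8.53, SE 0.15). VEP1 (Ghi.9261.2.A1_s_at), named for vein patterning in Arabidopsis, rose by 8.28 from a CN mean of -4.93.

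Enzymes that take the cell wall apart were among the 15 largest named rises. A beta-galactosidase (Gra.2314.1.S1_at) read -3.13, -3.45 and -3.61 in CN and 4.18, 4.05 and 4.04 in BS, a difference of 7.49 (SE 0.10). The polygalacturonase, which cuts pectin, read -3.75, -3.73 and -3.48 in CN and 3.77, 3.77 and 3.81 in BS, a difference of 7.44 (SE 0.10). XTR4 (Ghi.4532.1.A1_at), a xyloglucan endotransglycosylase, rose by 6.48. The Kunitz family inhibitor, of a class that blocks digestive proteases, read -3.45, -3.36 and -3.66 in CN and 3.73, 3.75 and 3.84 in BS, a difference of 7.27 (SE 0.09). No CN array came near a BS array for any of these probe sets.

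The other rises of this size covered defence, metabolism and transport. A curculin-like mannose-binding lectin rose by 7.34 and malate synthase (Ghi.8123.1.S1_at), an enzyme of the glyoxylate cycle, by 7.11. Further rises were those of LTP3 (lipid transfer protein 3) by 6.89, an integral membrane family protein by 6.51 and the phloem lectin ATPP2-A9 by 6.36. A probe set given as a major facilitator superfamily protein, which the array annotation calls a proton-dependent oligopeptide transporter, rose by 7.72. The cotton late embryogenesis storage protein clone D11 rose by 6.32. In 12 of these 15 the BS arrays lay above all 12 CN arrays. ATEXLB1, ASN1 and the curculin-like lectin were the exceptions, and there the CN mean at 2 dpa was 0.48, 0.72 and 2.30.

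**Figure D1:**
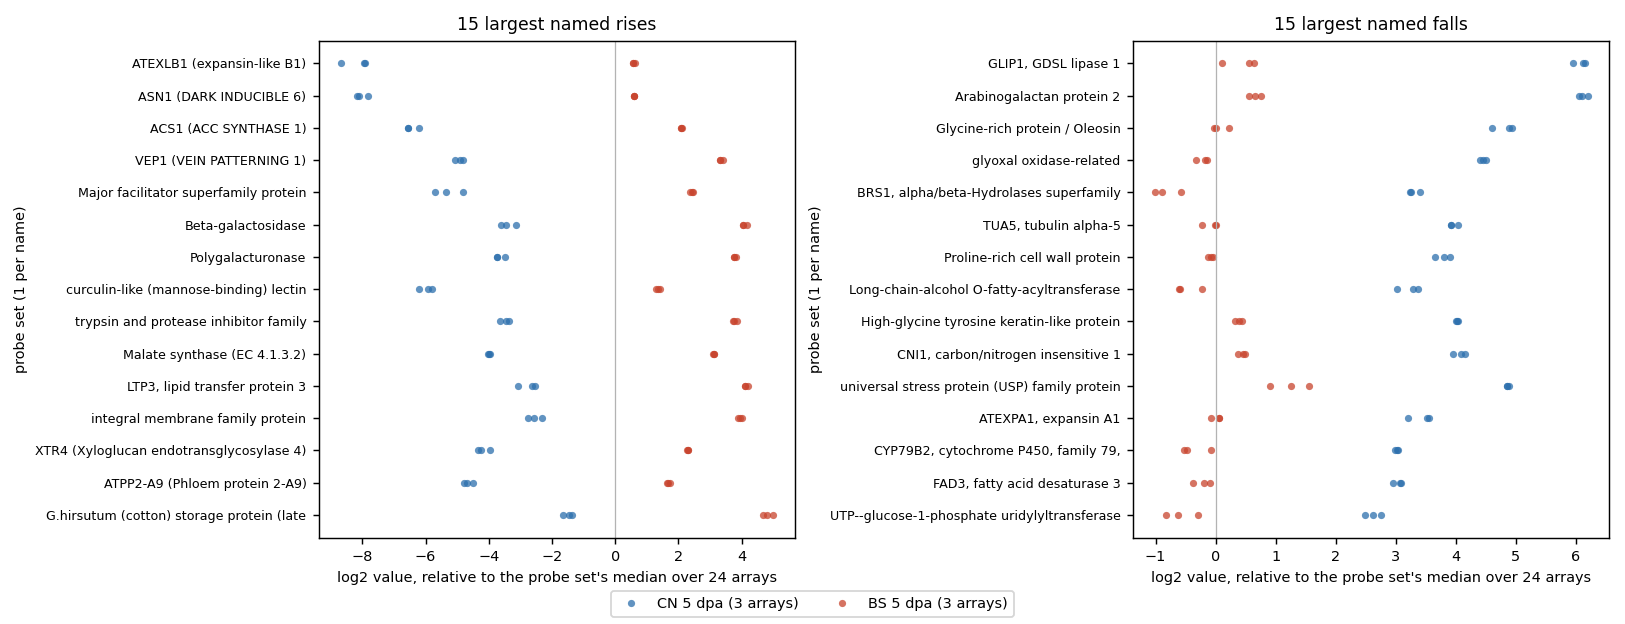
Values of the 15 largest named rises (left) and falls (right) in the 6 arrays of 5 dpa, with 1 row per probe set, log2 values relative to the median over 24 arrays on the horizontal axis, CN arrays in blue and BS arrays in red. The 3 arrays of a group sit close together and the groups do not overlap in any row; in the left panel CN lies as low as -8.69, and in the right panel CN lies as high as 6.20 with BS between -1.01 and 1.55.

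The largest named fall was that of GLIP1 (Ghi.6714.1.S1_s_at), a GDSL lipase of the cell exterior. It read 5.96, 6.12 and 6.15 in CN and 0.10, 0.64 and 0.55 in BS, a difference of -5.64 (SE 0.15, limma adjusted p = 8.8e-18). Arabinogalactan protein 2 (Ghi.5750.1.S1_s_at), a glycoprotein of the cell surface, read 6.20, 6.11 and 6.06 in CN and 0.56, 0.66 and 0.76 in BS, a difference of -5.46 (SE 0.09). The glycine-rich protein / oleosin (GhiAffx.24506.1.S1_at) read 4.88, 4.94 and 4.6 in CN and 0.01, -0.02 and 0.23 in BS. In these 3 probe sets BS stayed near the middle of the series while CN stood high.

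The other large falls included transcripts of the wall, of surface lipid and of the cytoskeleton. The glyoxal oxidase-related transcript fell by 4.66, the proline-rich cell wall protein (Ghi.783.1.S1_s_at) by 3.87 and ATEXPA1 (Ghi.2039.1.S1_x_at), an alpha-expansin that loosens walls, by 3.41. UTP-glucose-1-phosphate uridylyltransferase, which makes the UDP-glucose used for cellulose, fell by 3.21. A long-chain-alcohol O-fatty-acyltransferase of wax synthesis fell by 3.71 and FAD3, a desaturase that makes linolenic acid, by 3.27. TUA5 (Ghi.9446.1.S1_at), a tubulin that the array annotation calls beta-tubulin 17, read 3.92, 3.93 and 4.04 in CN and -0.22, -0.01 and 0.01 in BS, a difference of -4.04. BRS1, a carboxypeptidase of brassinosteroid signalling in Arabidopsis, fell by 4.13. CNI1, a RING-type ubiquitin ligase, and a universal stress protein fell by 3.63 each, and so did the transcript named high-glycine tyrosine keratin-like protein. The probe set named CYP79B2, which the array annotation calls CYP77B1, fell by 3.38.

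In the 6 falls followed through the stages, CN moved over a wider range than BS did. CN of GLIP1 stood at 0.93, -0.37, 6.07 and 2.63 on average at 0, 2, 5 and 10 dpa, and BS at -0.49, -0.26, 0.43 and -0.42. CN of arabinogalactan protein 2 stood at 1.45, -0.67, 6.12 and 7.48, and BS at -0.72, -1.90, 0.66 and -1.85. ATEXPA1 went from -3.86 in CN at 0 dpa to 3.43 at 5 dpa, and from -2.16 to 0.02 in BS. In 6 of the 15 largest named falls the BS arrays at 5 dpa lay below all 12 CN arrays, and in the other 9 they did not.

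**Figure D2:**
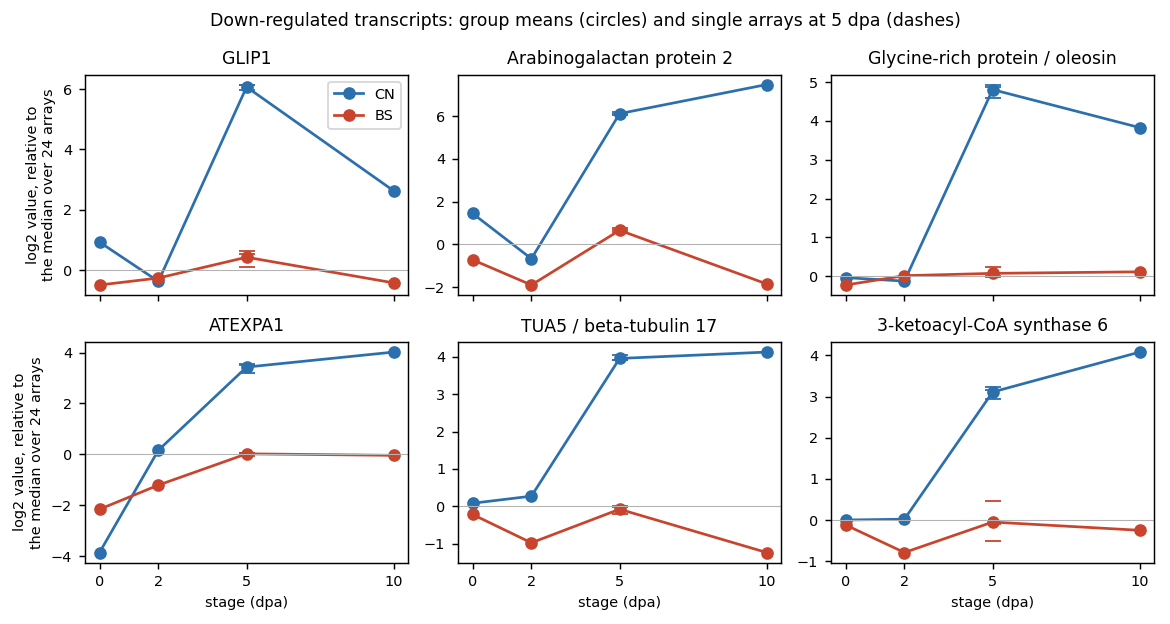
Group means (circles) of CN and BS at 0, 2, 5 and 10 dpa for 6 down-regulated transcripts, with the single arrays of 5 dpa as dashes and log2 values relative to the median over 24 arrays on the vertical axis. CN rises between 2 and 5 dpa in each panel while BS at 5 dpa stays between -0.08 and 0.66 on average.

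The hormone routes were examined from synthesis to response. Of 32 jasmonate probe sets, 16 were up-regulated and none down-regulated, with a median difference of 1.73, which became -0.30 with poly-A centring. By role, 5 of 6 lipoxygenase probe sets rose, with a highest value of 3.00, and so did 3 of 9 for allene oxide synthase, the next enzyme. Both OPR3 probe sets, for the reductase that follows, missed the fold threshold at 1.5 and 1.57. All 4 acyl-CoA oxidase probe sets, for an enzyme that the study counts with jasmonate synthesis, rose by 3.00 to 4.35. They are also among the beta-oxidation probe sets described below, and whether they serve jasmonate synthesis was not tested. JMT, which makes the volatile methyl jasmonate, read -1.37, -1.52 and -1.40 in CN and 2.39, 2.38 and 2.46 in BS, a difference of 3.84. TIFY10A (JAZ1), a repressor that jasmonate itself induces, rose by 3.86, and 2 of 7 JAZ probe sets were DETs.

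Ethylene had 19 rises and 1 fall among 27 probe sets, and the median of 2.13 stayed above 0 under each scaling tried. The ACC synthase probe sets rose in 4 of 5 cases, by up to 8.53. ACC oxidase, which releases the gas, had 12 probe sets, of which 7 rose. The EFE probe set GraAffx.20159.1.A1_s_at read -1.11, -0.72 and -1.01 in CN and 3.03, 2.66 and 2.54 in BS, a difference of 3.69 (SE 0.18). Receptors rose in 4 of 5 probe sets, the highest being ETR2, which the array annotation calls EIN4, at 3.14, and all 3 EIN3 probe sets, for the transcription factor at the end of the route, rose by 1.84 to 3.01.

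Early signalling transcripts rose in 27 of 55 probe sets and fell in 2. The median of 1.55 turned to -0.48 with poly-A centring. ATMPK3 (Ghi.6088.2.A1_s_at), a wound-responsive MAP kinase, read -4.62, -4.71 and -4.65 in CN and 0.85, 0.87 and 0.90 in BS, a difference of 5.53 (SE 0.07). Its second probe set rose by 4.46, and another of that name (Ghi.9528.1.S1_at), which the array annotation calls the cyclin-dependent kinase CDKB1;2, fell by 2.17. A calmodulin-related protein rose by 4.87 and MAPKKK14 by 4.73, whereas IQD11, a calmodulin binding protein, fell by 2.76 and ATCDPK1, a calcium-dependent kinase, by 1.69.

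The NAC and WRKY families had no fall. NAC factors had 15 up-regulated probe sets of 20, no down-regulated one and a median of 2.64. ANAC047 (Ghi.6538.1.S1_at) read -4.89, -5.14 and -5.21 in CN and 1.24, 1.12 and 1.19 in BS, and RD26, which responds to drying, rose by 5.71 and ANAC074 by 5.04. WRKY factors had 21 up-regulated of 36 and no down-regulated one, with a median of 1.93 that became -0.10 with poly-A centring. WRKY23, which the array annotation calls WRKY22, rose by 4.53, WRKY6, called WRKY19 there, by 3.94 and WRKY75 (GhiAffx.1859.1.S1_at) by 3.76. AP2-EREBP factors had 18 up-regulated and 1 down-regulated of 47 (median 1.19, and -0.84 with poly-A centring). RAP2.3 rose by 4.48 and ATERF2 by 4.39, and WRI1, a regulator of oil synthesis, fell by 1.73.

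Factors of growth and cell identity moved in both directions. Of 48 MYB probe sets 13 rose and 6 fell, and the median of 0.21 became -0.52 with hybridization-control centring. MYB74 (GhiAffx.8694.1.S1_a_at) read -3.74, -4.10 and -3.99 in CN and 2.34, 2.28 and 2.37 in BS, and MYB108 rose by 5.45 and LHY, a clock component, by 4.08. WER, which specifies epidermal cell files in Arabidopsis, read 3.08, 2.91 and 2.96 in CN and -0.06, 0.31 and 0.22 in BS, a difference of -2.82. ATRL1, a RADIALIS-like protein, fell by 2.61 and MYB60, a guard cell factor in Arabidopsis, by 2.09. Homeobox, GRAS and AUX/IAA factors had 22 up-regulated and 8 down-regulated of 70, with a median of 0.30 that became -0.43 with hybridization-control centring. At 31.4% and 11.4%, their shares too were near those of all named probe sets. BLH1 (GhiAffx.9239.1.S1_s_at), a BEL1-like homeodomain protein, rose by 6.0, KNAT3 by 2.85 and ATHB-12 by 2.82. ANL2, a homeodomain factor of the epidermis in Arabidopsis, fell by 2.69, SCR by 2.43 and HAT3 by 2.39.

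Defence proteins went both ways, and they are grouped here by the names of their probe sets. Of 39 probe sets 14 rose and 7 fell, with a median of 0.89, or -1.14 with poly-A centring. All 4 Kunitz inhibitor probe sets rose, by 1.76 to 7.27, as did all 3 of PR4 (1.94 to 2.5) and both of the class IV chitinase ATEP3 (2.31 and 3.01). An osmotin-like protein (Ghi.10646.1.S1_s_at) read -4.23, -4.43 and -4.72 in CN and 0.56, 0.47 and 0.62 in BS, a difference of 5.01, and ATOSM34 rose by 3.33. None of the 7 probe sets grouped as thaumatin-like rose, and 4 fell. This group leaves out the osmotin probe sets above. ATLP-1 (Ghi.8826.1.S1_s_at), one of the 7, was at 1.40, 1.33 and 1.23 in CN and -0.80, -0.75 and -0.74 in BS. Legume lectins fell in 2 of 3 probe sets and a 1,3-beta-glucanase (Ghi.8139.1.S1_at) fell by 1.90. The 2 probe sets named for basic PR1 were at -0.16 and 0.98 and were no DETs.

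Redox enzymes had 9 up-regulated and 6 down-regulated of 35 probe sets (median 0.67, and -0.06 with hybridization-control centring). These shares of 25.7% and 17.1% were near the 28.0% and 13.8% of all named probe sets. The name ATGSTU7 stood on both sides: Ghi.779.1.S1_at rose by 5.19, and Ghi.8056.1.S1_s_at, called a fibre glutathione transferase in the array annotation, fell by 2.04. POD9 (Ghi.7950.1.S1_at), a peroxidase, rose by 4.16 and 2 other peroxidase probe sets fell by 2.43 each. Phenylpropanoid, laccase and terpenoid enzymes rose in 4 of 28 probe sets, of which terpene synthase 8 rose by 4.42 and LAC14, a laccase, by 2.61. Their median of -0.03 became 0.03 with quantile normalization.

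Sugar, nitrogen and lipid carbon enzymes gave some of the highest values. Trehalose and galactinol genes, whose products are soluble stress sugars, had 10 up-regulated of 13 and a median of 3.20, above 0 under each scaling tried. ATTPS11 (Ghi.3451.2.A1_at), a trehalose phosphate synthase, read -4.78, -4.91 and -4.86 in CN and 1.17, 1.12 and 1.09 in BS. Of 6 trehalose phosphate synthase probe sets 5 rose, and of 4 for galactinol synthase 3 rose, with ATGOLS1 (GhiAffx.19500.1.S1_at) at 5.18. Of 7 ASN1 probe sets 6 rose, and the lowest, at 0.48, was no DET. Both proline oxidase probe sets, for the enzyme that breaks proline down, rose by 2.66 and 4.35, and NIA1, nitrate reductase, rose by 4.22. A probe set named NIA2, which the array annotation calls a cytochrome b5 family protein, fell by 1.76, and glutamate decarboxylase, which makes GABA, fell by 2.02. Asparaginase, which acts opposite to ASN1, had no up-regulated probe set of 4, and 1 fell by 1.67. Over the 24 nitrogen probe sets 11 rose and 3 fell, and the median of 0.58 became -0.14 with hybridization-control centring.

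Glyoxylate cycle and beta-oxidation probe sets rose in 9 of 14 cases and fell in none, with a median of 2.01 that became -0.02 with poly-A centring. Malate synthase read -4.04, -3.95 and -4.00 in CN and 3.09, 3.12 and 3.13 in BS. ACX2 (Ghi.6402.1.S1_at) rose by 4.35 and ACX3 by 3.35, and the thiolase PKT3 had 2 up-regulated probe sets of 4. The isocitrate lyase probe set, for the partner of malate synthase in the cycle, was at -0.82 and was no DET.

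The list named for low oxygen response gave a mixed picture, with 5 up-regulated and 2 down-regulated of 13 probe sets and a median of -0.66. Whether the tissue was short of oxygen was not tested. AOX1D, an alternative oxidase of mitochondria, rose by 4.45 and ADH1 (Ghi.8397.1.A1_at), alcohol dehydrogenase, by 2.84. Over the 5 alcohol dehydrogenase probe sets the values ran from -1.42 to 2.84. The name AHB2, a haemoglobin, rose in 1 probe set (2.15, or 1.43 and no DET with hybridization-control centring, called GLB1 in the array annotation) and fell in the other (-1.65). SUS1, a sucrose synthase, fell by 1.65.

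Heat shock proteins had 15 up-regulated and 1 down-regulated of 39 probe sets. Their median of 0.22 became -0.50 with hybridization-control centring. HSP81-3 (GhiAffx.17865.1.S1_at), a cytosolic chaperone of the HSP90 class, read -2.80, -3.20 and -3.41 in CN and 1.92, 1.85 and 1.82 in BS, a difference of 5.00 (SE 0.12). All 3 probe sets of this class rose and 6 of 8 small heat shock protein probe sets rose, by up to 4.35. The J-domain protein ATJ6 fell by 1.66. Ubiquitin ligases and conjugating enzymes had 16 up-regulated and 7 down-regulated of 45 (median 0.93, and -1.10 with poly-A centring), with an F-box family protein at 5.76 and AIP2 at -2.23. Among 51 proteases and senescence proteins 11 rose and 9 fell (median -0.78). SAG21, a senescence-associated protein, read -5.74, -6.0 and -5.95 in CN and 0.17, 0.22 and 0.37 in BS, and BETA-VPE, a vacuolar protease, rose by 3.32. The largest falls were those of an aspartyl protease family protein, which fell by 2.16, of CDR1, an aspartyl protease, which fell by 2.03, and of AIR3, a subtilase, which fell by 1.95.

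**Figure D3:**
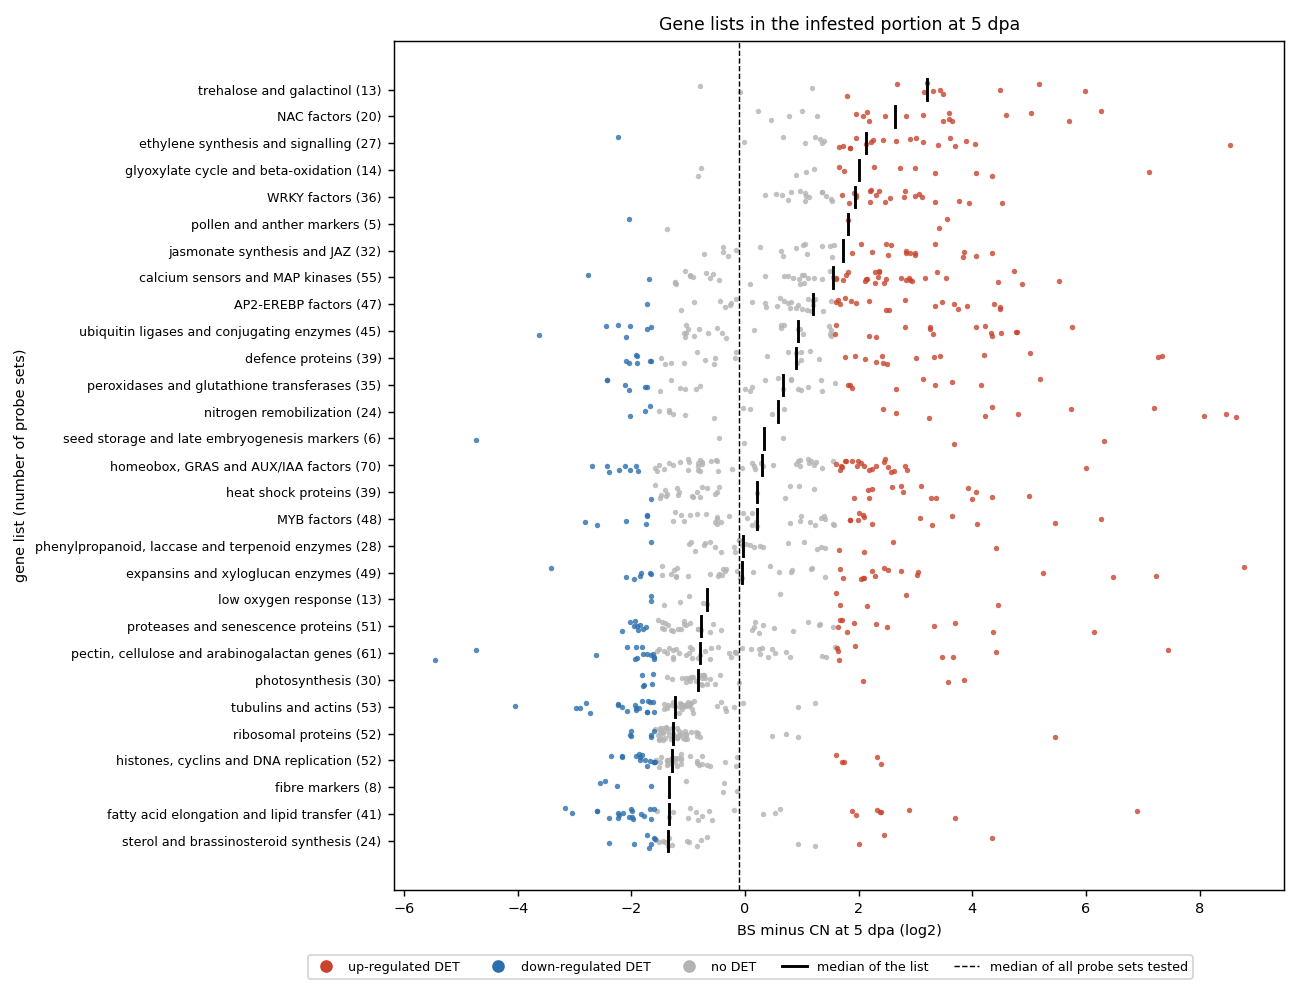
BS minus CN at 5 dpa (log2, horizontal axis) of each probe set in 29 gene lists, with up-regulated DETs in red, down-regulated DETs in blue and other probe sets in grey; black bars are list medians and the dashed line the median of all probe sets tested. Medians run from 3.20 for trehalose and galactinol to -1.35 for sterol and brassinosteroid synthesis, several lists span both sides, and medians of lists above 0 fall below 0 with poly-A centring except for ethylene, NAC and trehalose and galactinol.

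Wall genes moved apart within their families. Expansins and xyloglucan enzymes had 16 up-regulated and 7 down-regulated of 49 probe sets and a median of -0.05. These shares of 32.7% and 14.3% were near the 28.0% and 13.8% of all named probe sets. Of 28 expansin probe sets 7 rose and 4 fell, over a range from -3.41 to 8.78, and of 21 for xyloglucan enzymes 9 rose and 3 fell. TCH4 (Ghi.7911.1.S1_x_at), a touch-induced xyloglucan enzyme, rose by 5.25 and MERI5B, an enzyme of the same family, fell by 2.10. Pectin, cellulose and arabinogalactan genes had 8 up-regulated and 14 down-regulated of 61 and a median of -0.79. The polygalacturonase described above was the one riser among 8 probe sets of that enzyme, and 2 fell. Fasciclin-like arabinogalactan proteins fell in 7 of 14 probe sets, with FLA13 at -2.62 and FLA2 at -2.08, and rose in 1. Of 7 cellulose synthase probe sets 1 rose, and the values ran from -0.18 to 1.93.

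Transcripts of growing cells were lower in BS. With quantile normalization the list medians named in this paragraph became -1.31 for tubulins and actins and -1.36 for histones, cyclins and replication genes. Centring on the spiked-in controls lowers each value, so it could not have brought these medians above 0. Of 53 tubulin and actin probe sets none rose and 20 fell (median -1.24). All 30 tubulin probe sets were below 0, from -4.04 to -0.04, and 11 were DETs. The name of the highest is unsettled, since its gene is also that of a probe set named for a cellulose synthase. ACT7 (Ghi.7983.1.S1_s_at), which the array annotation calls actin 3, read 2.90, 2.90 and 2.65 in CN and -0.17, -0.21 and -0.08 in BS, a difference of -2.97 (SE 0.08). Histones, cyclins and replication genes fell in 14 of 52 probe sets and rose in 5 (median -1.29). The 17 histone probe sets lay between -1.86 and -0.81 and 5 were DETs. The 3 largest rises of that list were ZIFL1, a membrane transporter, CDF3, a day-length factor, and RDO4, a histone ubiquitin ligase, none of which is a histone or a cyclin.

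Ribosomal protein transcripts were mostly lower in BS, by less than the fold threshold in most probe sets. Of 52 probe sets 6 fell and 1 rose, and the median was -1.27, with RPS16A at -2.02 and RPL4A at -2.01. Quantile normalization gave 31 down-regulated probe sets in place of 6, and hybridization-control centring gave 45. The probe set that rose (Ghi.1818.1.S1_at) carries the name of the fruit fly ribosomal protein S23, CG8415-PA. It read -0.04, -0.09 and -0.16 in CN and 5.28, 5.36 and 5.46 in BS, a difference of 5.46 (SE 0.21). Several cotton histone probe sets carry fly names too, and whether the transcript is of the plant or the larva was not tested.

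Surface lipid and membrane genes fell more often than they rose. Fatty acid elongation and lipid transfer probe sets fell in 19 of 41 cases and rose in 8 (median -1.34). All 4 ketoacyl-CoA synthase probe sets, for enzymes that lengthen the fatty acids of cuticle and membrane, fell by 2.00 to 3.16, and 3-ketoacyl-CoA synthase 6 read 3.22, 3.15 and 2.95 in CN and -0.51, -0.09 and 0.46 in BS. The lipid transfer proteins went both ways, with 7 up-regulated and 5 down-regulated of 20. Sterol and brassinosteroid genes fell in 7 of 24 and rose in 3 (median -1.35), with DET2, a steroid reductase, at -2.39. The probe set that rose most there, by 4.34, was BRH1, a brassinosteroid-responsive RING protein and no enzyme of synthesis. A second BRH1 probe set (Ghi.7534.1.A1_at) fell by 1.66. ATSMO2, a sterol methyl-oxidase, rose by 2.01 in 1 probe set (GhiAffx.61306.1.S1_at) and fell by 1.72 in another (GarAffx.37201.1.S1_at).

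Markers of the tissues a boll portion can hold were read as lists. Of 8 fibre markers none rose and 4 fell, with a median of -1.34, and the values ran from -2.55 to -0.14. ANNAT1 (Ghi.6079.1.S1_s_at), an annexin, read 2.18, 2.19 and 2.13 in CN and -0.40, -0.29 and -0.20 in BS. Photosynthesis genes, which mark the green wall, rose in 3 of 30 probe sets and fell in 5 (median -0.83). Of 22 probe sets for light harvesting and photosystem proteins 1 rose and 2 fell, and protochlorophyllide reductase fell in 3 of 5. Seed storage and late embryogenesis markers rose in 2 of 6 and fell in 1, over a range from -4.74 to 6.32, and pollen and anther markers rose in 3 of 5 and fell in 1. Whether the CN and BS portions held the same tissues in the same shares was not tested.

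The 5 dpa response was then set beside the other stages, each against its own controls. The 4 stages share no arrays, but they share the estimate of error. The rises of 5 and 10 dpa had 1267 probe sets in common, which is 82.6% of the 5 dpa list and 58.9% of the 10 dpa list of 2150 (8.97% of those tested). The falls had 533 in common, which is 90.5% of the 5 dpa list but 19.3% of the 10 dpa list of 2763 (11.5%). With 0 dpa, 714 rises were shared, which is 46.6% of the 5 dpa list and 71.0% of the earlier list of 1005 (4.19%), and 105 falls, which is 17.8% and 34.3% of 306 (1.28%). With 2 dpa, 538 rises were shared, which is 35.1% and 67.2% of 801 (3.34%), and 319 falls, which is 54.2% and 29.8% of 1070 (4.46%). Opposite calls were few, with 19 probe sets up-regulated at 5 dpa and down-regulated at 10 dpa and 12 at 2 dpa. There were 162 rises and 41 falls called at 5 dpa and at no other stage.

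**Figure D4:**
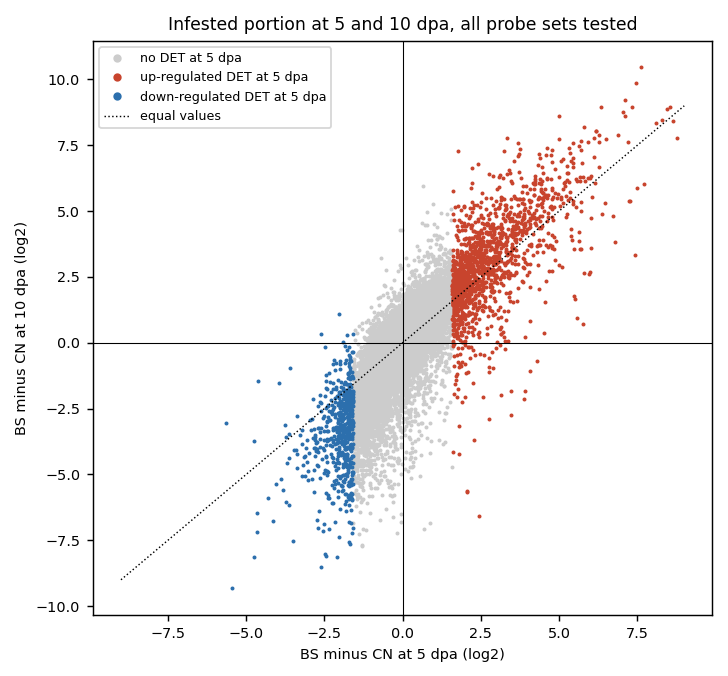
BS minus CN at 5 dpa (horizontal axis, log2) against BS minus CN at 10 dpa (vertical axis, log2) for 23977 probe sets, with up-regulated DETs of 5 dpa in red, down-regulated DETs of 5 dpa in blue, others in grey and a dotted line where the values are equal. Red points lie on both sides of the line, blue points lie mostly below it, and 1267 of the red and 533 of the blue are DETs of the same direction at 10 dpa.

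The difference between stages was tested itself, as the interaction of infestation and stage with the same thresholds. Entire bolls were taken at 0 and 2 dpa, so stage and the part sampled cannot be told apart in the contrasts with them. Against 2 dpa, 1010 probe sets (4.21%) had a more positive and 248 (1.03%) a more negative difference at 5 dpa. Against 10 dpa the numbers were 1450 (6.05%) and 450 (1.88%), and against 0 dpa 625 (2.61%) and 382 (1.59%). The widest named contrasts with 2 dpa were those of ASN1 (8.96), the curculin-like lectin (8.76) and malate synthase (8.62), and on the other side GLIP1 (-5.76), the glycine-rich protein / oleosin (-4.87) and arabinogalactan protein 2 (-4.24). Malate synthase had BS minus CN at 2.28, -1.51, 7.11 and 8.60 from 0 to 10 dpa. From 2 to 5 dpa its CN mean went from 1.98 to -4.00 and its BS mean from 0.47 to 3.11. Over the same stages ASN1 (Gra.1559.1.A1_at) went from 0.72 to -8.03 in CN and from 0.39 to 0.61 in BS. The lectin went from 2.30 to -5.99 in CN and from 0.88 to 1.36 in BS. In all 3 the change in CN was thus larger than that in BS.

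The largest named differences from 10 dpa were as follows. POM1 (Ghi.5550.1.A1_s_at), a chitinase-like protein of wall formation, rose by 2.43 at 5 dpa and stood at -6.57 at 10 dpa. A probe set named CESA8 (Ghi.4648.3.A1_x_at), a cellulose synthase, was at -0.06 and one named alpha tubulin 1 (Ghi.1314.3.A1_x_at) at -0.04 at 5 dpa, against -6.79 and -6.52 at 10 dpa. The platform annotation pairs both with 1 gene, LOC107905189, so they may be 1 transcript, and which name is right is unsettled. In the other direction, AFP1, a regulator of abscisic acid response, stood at 1.76 against 7.30, the seed protein D-29 at 0.67 against 5.97 and ATOSM34 at 3.33 against 7.77. The histone, cyclin and replication list had 24 probe sets with a more positive difference at 5 dpa than at 2 dpa and 21 than at 10 dpa, and none more negative at either, and its median was -1.29 at 5 dpa, against -2.49 at the stage before and -2.36 at the stage after. Against 0 dpa, S23 differed by 5.90, ASN1 (Ghi.10655.1.S1_s_at) by 5.89 and clone D11 by 5.65, and ATEXPA1 by -5.11, the oleosin by -4.55 and POD9 by -4.50.

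In a small set of transcripts BS minus CN was larger at 5 dpa than at each of the other 3 stages. This is a statement on the difference and not on the level in BS, and the part sampled also differed from that at 0 and 2 dpa. The rise at 5 dpa was larger by these tests than the one at 0, at 2 and at 10 dpa in 54 probe sets (0.225% of those tested), of which 23 had a name, and the fall was deeper in 6 (0.025%), of which 5 had a name. The following were chosen after their values were seen. The polygalacturonase stood at 4.89, 1.95, 7.44 and 3.35 at 0, 2, 5 and 10 dpa. A putative acid phosphatase (GhiAffx.63762.1.S1_s_at) stood at 2.39, 2.51, 5.97 and 2.61, and a second probe set of that name (Ghi.5561.1.A1_s_at) at 2.41, 2.48, 5.79 and 2.66. BLH1 stood at 2.33, 1.22, 6.0 and 2.68. For these 4 probe sets the rise at 5 dpa exceeded each other stage by at least 2.55 on the log2 scale.

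Chaperones, an inhibitor and wall proteins were in the same set. HSP81-3 stood at 1.26, 3.01, 5.00 and 2.97, and a class I-related small heat shock protein (HSP15.7-CI) at 1.26, 1.82, 4.35 and 2.04. The Kunitz inhibitor was high at each stage, at 4.39, 4.01, 7.27 and 5.38. In these 3 and in BLH1 the mean level of BS was higher at 10 dpa than at 5 dpa, and the CN level was lower at 5 dpa. For HSP81-3, BS stood at 1.86 and 3.94 and CN at -3.14 and 0.97 at 5 and 10 dpa. For the Kunitz inhibitor BS stood at 3.78 and 4.39 and CN at -3.49 and -0.99. BLH1 had BS at 1.58 and 2.20 and CN at -4.42 and -0.49, and HSP15.7-CI had BS at 1.24 and 1.79 and CN at -3.11 and -0.25. For the polygalacturonase, by contrast, BS stood at 3.78 and -0.38 and CN at -3.66 and -3.73. Arabinogalactan protein 3 rose by 3.46 at 5 dpa and stood at -1.03, 0.35 and -2.73 at the other stages, and an expansin A1 probe set (Ghi.249.1.A1_at) by 2.28 against -1.01, -0.90 and -3.71. That probe set and the one that fell by 3.41 carry the same name. IRT1, an iron transporter, stood at 0.04, -3.71, 2.99 and -0.21, and KNAT6, a homeobox gene of meristems in Arabidopsis, at 0.11, -0.76, 2.46 and -0.44.

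The falls deeper at 5 dpa included both GLIP1 probe sets, with the second (Gra.254.1.S1_s_at) at -1.32, 0.01, -4.62 and -1.44. A receptor-like protein kinase-related transcript (Ghi.5773.1.S1_at) stood at 1.41, 1.20, -2.03 and 1.08, so that it was lower in BS at 5 dpa and higher at the other stages. ATRL1 stood at -0.20, 0.15, -2.61 and 0.32, and LOG1, named for an enzyme that activates cytokinin, at 0.00, -0.18, -1.78 and 0.31.

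**Figure D5:**
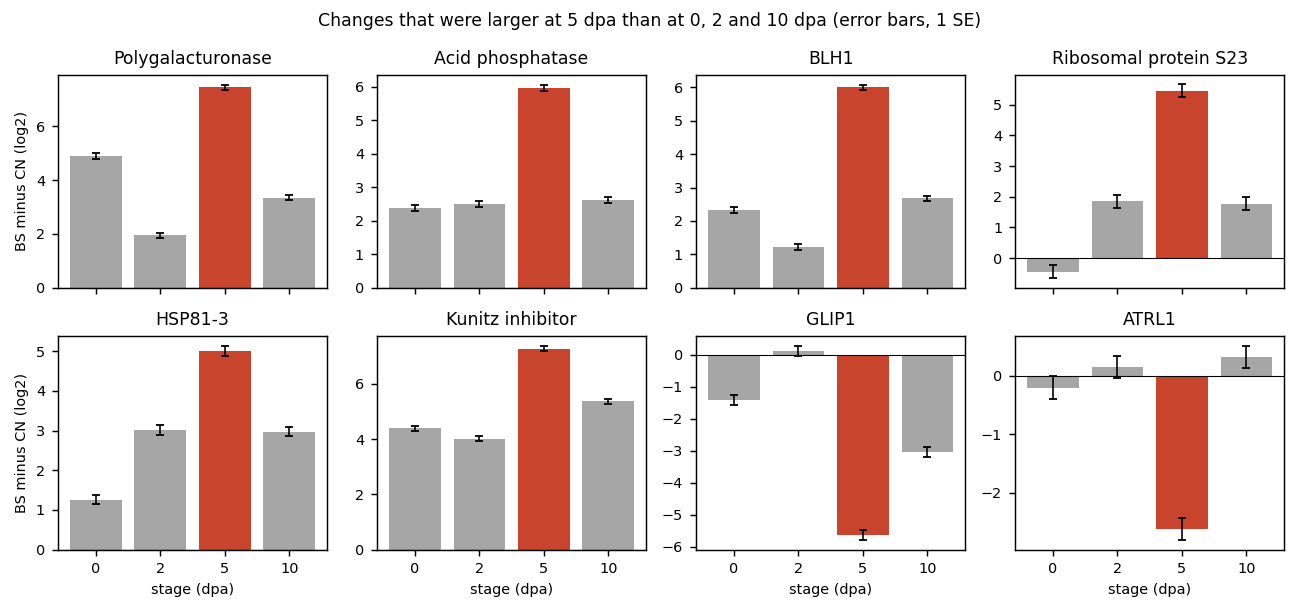
BS minus CN (log2, vertical axes with their own ranges) at 0, 2, 5 and 10 dpa for 8 of the transcripts whose change was larger at 5 dpa (red) than at each other stage (grey), with error bars of 1 SE from the common fit. The rise of polygalacturonase reaches 7.44 and that of BLH1 6.0 at 5 dpa, and GLIP1 and ATRL1 reach -5.64 and -2.61.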

How the data were processed

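RNA of the boll samples was hybridized to the Affymetrix Cotton GeneChip. The deposited values are log2 intensities that the authors summarized by RMA in GeneSpring GX and centred per probe set on its median over 24 arrays (the largest remaining row median was 5e-07), so no filter on low signal could be set. The 103 AFFX and 52 RPTR control probe sets were left out, which gave 23977. Group means of all 8 groups were fitted with limma 3.58.1 in R 4.3.3 (residual degrees of freedom 16, prior 3.53), with contrasts for the difference of BS from CN at 5 dpa and for its change from each other stage. The number of arrays, 3 a group, limits the precision. In simulated data for this comparison, over 23977 probe sets, 100% of changes of 2 and of 4 on the log2 scale were called. Changes of 1 lay under the fold threshold and could not be called, and their mean estimate was 0.964. The simulation drew independent noise at the observed spread. It held neither the shift of the spiked-in controls nor the unequal spread of the arrays, so it cannot tell how these affect the calls.

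Named genes were the 15 largest rises and falls and the 3 largest each way in each list, among DETs without overlap of the groups and with 1 probe set a name, and the 3 named probe sets furthest each way in each difference between stages, of which 3 were no DETs at 5 dpa. Further probe sets of a named gene, and members of families within a list, are given by their counts and ranges. Names came from the study's tables of probe sets, where searches restricted to hormone or transcription factor databases can give the name of a relative. The members and lists were chosen with earlier results of these data known. Identifiers ending in s_at or x_at (46.4% of DETs and 45.2% of all probe sets tested) match several transcripts, whose signals cannot be separated. Alternatives tried were other scalings, fold thresholds, a replicate block, robust variances, the 6 arrays alone, the methods' t-test and leaving out each array of 5 dpa. Not every named probe set is given in the text.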

Additional observations from a re-analysis of the deposited data

Results flagged for a closer look

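Transcripts named for the difference between stages are listed here with the tested difference of BS minus CN, 5 dpa minus the other stage. That difference holds the change of CN between stages as well as that of BS. Against 2 dpa these were ASN1 (Gra.1559.1.A1_at) at 8.96, the curculin-like lectin at 8.76, malate synthase at 8.62, GLIP1 (Ghi.6714.1.S1_s_at) at -5.76, the glycine-rich protein / oleosin at -4.87 and arabinogalactan protein 2 at -4.24. Against 10 dpa these were POM1 at 9.0, the probe set named CESA8 at 6.73, the one named alpha tubulin 1, which the platform annotation pairs with the same gene, at 6.48, AFP1 at -5.54, the seed protein D-29 at -5.30 and ATOSM34 at -4.44. Against 0 dpa these were ribosomal protein S23 at 5.90, ASN1 (Ghi.10655.1.S1_s_at) at 5.89, clone D11 at 5.65, ATEXPA1 at -5.11, the oleosin at -4.55 and POD9 at -4.50.

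The spiked-in controls, which were left out of the tested probe sets and used for 2 alternative scalings, were higher in BS than in CN at 5 dpa, by 0.72 for the hybridization controls and by 2.03 for the poly-A controls. Groups of 3 arrays were not searched for outlying arrays.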

How the results depend on the processing

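Scaling and the fold threshold moved the counts, and the other choices did not move any of them by over 1.5 times. Centring on hybridization controls gave 837 up-regulated and 2958 down-regulated DETs at 5 dpa, centring on poly-A controls 314 and 19091, and quantile normalization 1297 down-regulated. A fold of at least 2 gave 2624 and 2221, and no fold threshold 5709 and 7736. For 5 against 2 dpa, more positive and more negative differences were 1926 and 847 at a fold of at least 2, 4534 and 4224 with no fold threshold, and quantile normalization gave 643 more negative. For 5 against 10 dpa they were 2733 and 1678, then 5737 and 5907, quantile normalization gave 587 more positive, and poly-A centring 620 and 4227. For 5 against 0 dpa they were 1500 and 1111, then 4265 and 4007, quantile normalization gave 774 more negative, and poly-A centring 227 and 1413. The cause was not tested beyond the shift that centring itself makes.

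Leaving out each array of 5 dpa gave 1503 to 1553 up-regulated and 579 to 635 down-regulated DETs, 991 to 1037 and 248 to 258 differences against 2 dpa, 1427 to 1491 and 449 to 461 against 10 dpa, and 613 to 643 and 372 to 397 against 0 dpa. The replicate block gave 1533 and 589, the same as without it, and 1533 and 589 also in the 6 arrays alone. Samples of the same number did not deviate together (r = -0.20, 0.04 and -0.24), and those of different numbers gave r from -0.17 to 0.29. With 3 arrays a group, these values cannot decide whether the numbers pair CN with BS. The methods' t-test gave 1519 and 580.

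Of the named genes, 3 rises turned negative with poly-A centring: RDO4 (-0.27), AFP1 (-0.27) and ATSMO2 (GhiAffx.61306.1.S1_at, -0.02), and 19 others were no longer called. With hybridization-control centring 6 rises were no longer called: RDO4 (1.03), AFP1 (1.03), ATSMO2 (1.28), the RuBisCO activase (1.35), the 4CL1-like ligase (1.37) and AHB2 (Ghi.8085.1.S1_at, 1.43). BEN1 and BRH1 (Ghi.7534.1.A1_at), near the fold threshold, missed it without CN replicate 3 (-1.48 and -1.50) or BS replicate 3 (-1.46 and -1.52) and were not called by the methods' t-test, SUS1 without BS replicate 2 (-1.47) and AHB2 (GarAffx.24390.1.S1_s_at) without BS replicate 1 (-1.58).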
